A study of Mus musculus with 6 samples.

Results

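Transcripts of p53 and 9 of its target genes were measured by bulk RNA-seq in the livers of obese mice after AAV8-TBG-Cre or AAV8-TBG-GFP transduction. The 10 genes are Trp53, Cdkn1a, Mdm2, Bax, Ccng1, Phlda3, Btg2, Eda2r, Trp53inp1 and Sesn2, chosen by symbol from the 18419 genes with any count, and all 10 had enough counts to be tested among 13431 genes. The livers came from 6 male Mettl14f/f mice. HFD (high-fat diet) feeding started at 8 weeks of age, a vector was injected into the tail vein after 10 weeks of HFD, and RNA was taken 8 weeks later, at about 26 weeks of age. Both groups, 3 mice each, carried floxed Mettl14 alleles and were on HFD, although the labels call the AAV8-TBG-GFP livers WT and the AAV8-TBG-Cre livers METTL14 KO. The TBG promoter is active in hepatocytes, so other liver cells were not a target of Cre. METTL14 is a subunit of the complex that methylates adenosines in mRNA (m6A).

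p53, encoded by Trp53, is a transcription factor that is held at low levels in unstressed cells because MDM2, an E3 ubiquitin ligase, marks it for degradation. DNA damage and other stresses free p53 from MDM2, and p53 then activates genes that stop the cell cycle, promote cell death, repair DNA and adjust metabolism, Mdm2 included. In liver, p53 activity is known in injury, steatosis and regeneration. Since p53 is controlled largely at the protein level, Trp53 mRNA alone does not report its activity, and its targets also answer to other regulators.

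p53 binds a pair of copies of a short half-site, which was searched for in the RefSeq promoters of GRCm38.p6, the assembly called mm10 in the submitters' processing notes. Each promoter window holds 250 bases before a transcription start and 50 after it, and the p53 half-site, a palindrome, was matched without mismatch and with overlaps allowed. A window was given for 9 of the 10 genes (Trp53inp1 was not matched), 10 windows in all, since Cdkn1a has a further start. Counted by gene, 5 of the 9 had a half-site. Counted by window, 8.36% of all 32851 windows had one, so the units differ. The matches are shown because they mark which of the genes carry the p53 motif close to a start. They run 5′ to 3′ on the strand of the gene, with the half-site in capitals:
Cdkn1a, plus strand, chr17:29090896-29090947: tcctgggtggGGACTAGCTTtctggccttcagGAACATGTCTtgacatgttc
Mdm2, minus strand, chr10:117710925-117710954: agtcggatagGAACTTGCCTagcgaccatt
Bax, minus strand, chr7:45467080-45467109: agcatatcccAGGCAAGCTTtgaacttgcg
Ccng1, minus strand, chr11:40755452-40755481: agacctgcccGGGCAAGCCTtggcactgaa
Trp53, plus strand, chr11:69580274-69580303: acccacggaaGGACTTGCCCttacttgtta
Cdkn1a was the only one of the 9 genes with 2 exact matches in its window. They started 73 and 51 bases before the upstream start of the gene, with 12 bases between them. Of all windows, 0.359% had 2 or more. The search allowed no mismatch, so imperfect half-sites, also any beside a match, were not counted, and which half-sites form a pair was not tested. The other Cdkn1a start lies 2790 bases downstream, and its window had none. Which of these starts gave the Cdkn1a counts was not tested. The half-sites of Bax, Mdm2, Ccng1 and Trp53 began 201, 186, 185 and 75 bases before the start. Btg2, Phlda3, Sesn2 and Eda2r had no match to these letters in the window. A match describes the sequence and is not a measurement of p53 binding.

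The libraries held between 20356440 and 21010508 fragments in expected counts, which divide fragments shared between transcripts. Levels are given in CPM, the count scaled to the size of its library after TMM normalization, and fold changes and p-values come from edgeR's quasi-likelihood test, adjusted by the Benjamini-Hochberg method over all 13431 genes. The livers labelled AAV8-TBG-GFP replicates 1 to 3 are called GFP livers 1 to 3 below, and those labelled AAV8-TBG-Cre are called Cre livers 1 to 3. P-values measure the spread between these livers. The targeted gene Mettl14 had 6.30, 6.43 and 5.81 CPM in GFP livers 1, 2 and 3 and 4.96, 5.38 and 4.86 CPM in Cre livers 1, 2 and 3. After TMM scaling every Cre liver was lower than every GFP liver. In the deposited FPKM (fragments scaled by transcript length and library size) the GFP livers had 2.31, 2.31 and 2.01. The Cre livers had 1.92, 2.40 and 1.82, so the groups overlapped and Cre liver 2 was the highest liver. The log2 fold change of Mettl14 was -0.29 (standard error, SE, 0.15, edgeR adjusted p = 0.337). With library sizes alone it was -0.11. Since Mettl14 RNA was not called, directions below rest on the labels. The paper reports lower METTL14 protein and lower total m6A in Cre livers of males on HFD, at an earlier time after transduction. The library names have 2 digits in GFP livers 1 and 2 and Cre liver 1 and 4 digits in the other 3 livers, a difference that the labels do not explain and that is followed below because several of the 10 genes moved with it. In bulk liver, fewer cells of a type and less RNA per cell cannot be told apart.

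Of the 10 genes, 6 had a positive and 4 a negative log2 fold change in the Cre livers, with a median of 0.042, beside -0.0065 over all genes tested. With a threshold of p under 0.05 before adjustment and a change of 1.2-fold or more, Phlda3 was higher and Ccng1 and Trp53inp1 were lower, so 3 of 10 were called where 20.5% of all genes were (12.0% higher and 8.41% lower). With an adjusted p-value under 0.05 from edgeR, 0 of the 10 were called, whereas 0.931% of all genes were (0.484% higher and 0.447% lower). DESeq2 called 2 of them, Phlda3 and Trp53inp1, by its adjusted p-value, beside 1157 of all 18419 genes. Limma on log2(FPKM + 1) called 0 of the 9 it tested, beside 24 of 12138 genes. The CPM ranges of the groups did not overlap for Trp53, Phlda3 and Ccng1, 3 of 10, beside 27.0% of all genes tested. In edgeR and by CPM range, the share of these genes that differed was therefore near that of all genes, and they moved in both directions.

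**Figure D1:**
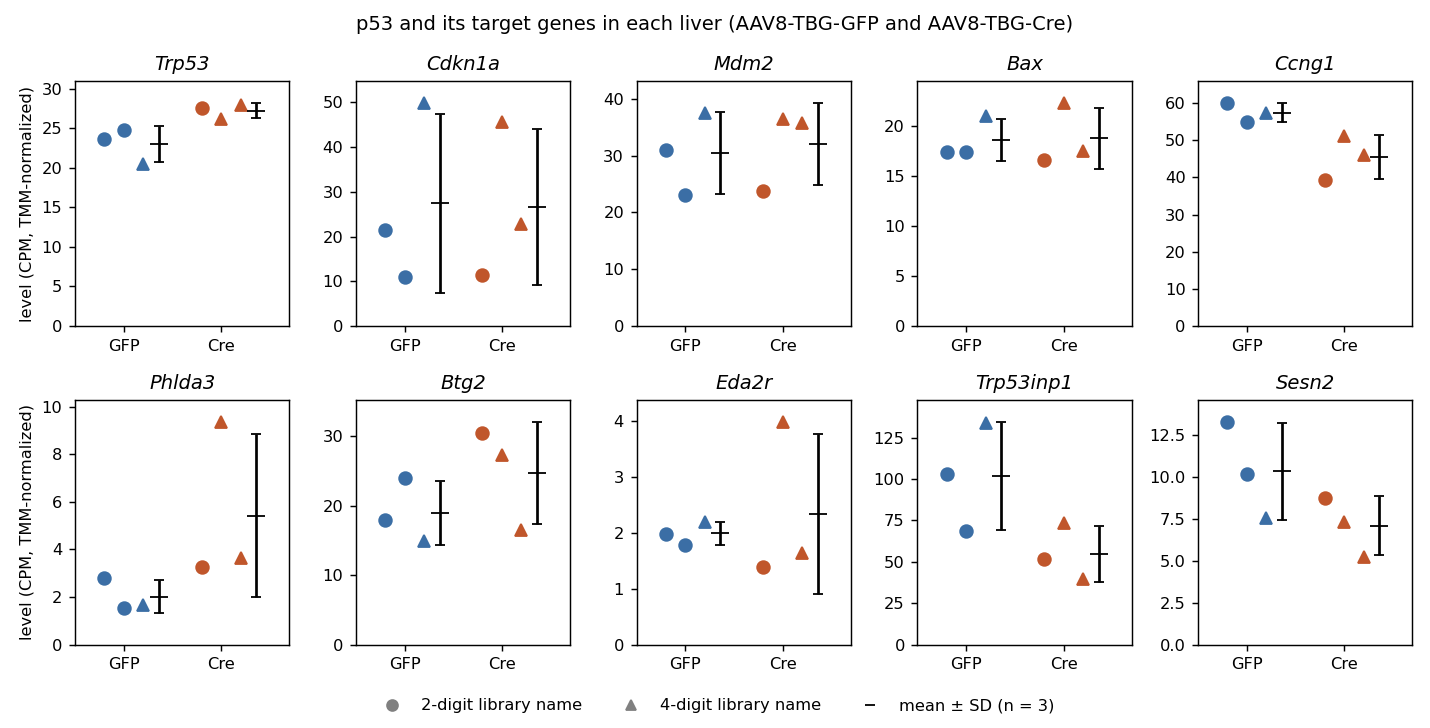
Level of each of the 10 genes in CPM (vertical axis, from 0) in the 3 GFP and 3 Cre livers; each point is 1 liver, circles and triangles mark library names of 2 and 4 digits, and bars show mean ± SD (n = 3). The groups separate for Trp53, Phlda3 and Ccng1, whereas for Cdkn1a, Mdm2 and Bax every triangle lies above every circle. For Bax the margin is very small.

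Trp53 and its inhibitor Mdm2 come first. Trp53 (chr11:69580348-69591873) had 23.7, 24.8 and 20.4 CPM in the GFP livers and 27.5, 26.1 and 27.9 CPM in the Cre livers. Every Cre liver lay above every GFP liver, by a small margin. The log2 fold change of 0.24 (SE 0.11, edgeR unadjusted p = 0.0533, adjusted p = 0.246) did not pass either threshold. Trp53 was also among the least variable of the genes, with a within-group SD of 0.11 on the log2 scale that only 16.1% of all genes tested undercut. An exact two-sided permutation test gave p = 0.1, the smallest that 3 mice against 3 allow.

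Mdm2 (chr10:117688875-117710758) had 31.0, 23.2 and 37.6 CPM in the GFP livers and 23.7, 36.6 and 35.8 CPM in the Cre livers. The groups overlapped almost completely, and the log2 fold change was 0.068 (SE 0.22, edgeR adjusted p = 0.889). The low livers were GFP liver 2 and Cre liver 1, so the high and low values crossed the vector groups.

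Cdkn1a, Btg2 and Ccng1 act on the cell cycle. Cdkn1a (chr17:29090979-29100722), which encodes the cyclin-dependent kinase inhibitor p21 and is the best known p53 target, had 21.5, 10.9 and 49.8 CPM in the GFP livers and 11.5, 45.7 and 22.8 CPM in the Cre livers. After TMM scaling the highest and the lowest liver were both in the GFP group, with a 4.56-fold range over the 6 livers. In the deposited FPKM Cre liver 2 was the highest, at 28.1 against 23.7 in GFP liver 3. The means were 27.4 ± 20.1 CPM (SD, n = 3) and 26.7 ± 17.5 CPM (SD, n = 3), a log2 fold change of -0.036 (SE 0.61, edgeR adjusted p = 0.982). Its within-group SD of 1.04 on the log2 scale was larger than that of 98.8% of the genes tested.

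Btg2 (chr1:134074865-134079155), an antiproliferative gene, had 18.0, 24.0 and 14.9 CPM in the GFP livers and 30.4, 27.3 and 16.5 CPM in the Cre livers. Cre livers 1 and 2 were above all 3 GFP livers and Cre liver 3 was below 2 of them. The log2 fold change was 0.39 (SE 0.26, edgeR adjusted p = 0.439).

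Ccng1 (chr11:40748552-40755309), which encodes cyclin G1, had 59.9, 55.0 and 57.3 CPM in the GFP livers and 39.4, 51.1 and 46.1 CPM in the Cre livers. All Cre livers were lower, and the log2 fold change was -0.33 (SE 0.12, edgeR unadjusted p = 0.0230, adjusted p = 0.170). This separation rests on the TMM scaling. In the deposited FPKM the values were 16.4, 14.8 and 14.8 against 11.4, 17.0 and 12.9, and Cre liver 2 was the highest liver. TMM gave that library a factor of 1.18, against 0.913 to 1.02 in the other 5. The call was also lost without GFP liver 1 (-0.31, edgeR unadjusted p = 0.0719) and without Cre liver 1 (-0.24, edgeR unadjusted p = 0.0594).

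Bax, Phlda3 and Eda2r belong to cell death and survival signalling. Bax (chr7:45461695-45466903), a pore-forming protein of mitochondrial apoptosis, was the most even of the 3, with 17.3, 17.4 and 20.9 CPM against 16.6, 22.2 and 17.5 CPM. The groups overlapped, and the log2 fold change was 0.016 (SE 0.15, edgeR adjusted p = 0.965).

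Phlda3 (chr1:135766085-135769134), which encodes a repressor of AKT signalling, had 2.80, 1.53 and 1.68 CPM in the GFP livers and 3.24, 9.36 and 3.66 CPM in the Cre livers. These levels rest on 55, 30 and 32 counts and on 68, 228 and 76 counts. All Cre livers were higher, 2 of them by a small margin and Cre liver 2 by a wide one. It had the largest difference of the 10 genes, a log2 fold change of 1.44 (SE 0.46, edgeR unadjusted p = 0.0155, adjusted p = 0.145), equal to 2.72-fold. Without Cre liver 2 the log2 fold change was 0.78, its lowest value among the 6 fits that each left out 1 liver. Its call was lost without GFP liver 2 (1.28, edgeR unadjusted p = 0.0538) and without GFP liver 3 (1.32, edgeR unadjusted p = 0.0502).

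Eda2r (chrX:97333837-97377234), a receptor of the tumour necrosis factor receptor superfamily, rested on 29 to 97 counts per library. It had 1.98, 1.79 and 2.20 CPM in the GFP livers and 1.38, 3.98 and 1.64 CPM in the Cre livers. Cre liver 2 was again the highest liver and the other 2 were the lowest of the 6, so the sign of the log2 fold change of 0.24 (SE 0.42, edgeR adjusted p = 0.786) came from 1 liver. Without that liver it was -0.40. A pseudogene, Gm18111, overlaps Eda2r by 674 bases, and the strand of the counts is not given in the sources used here.

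Cre liver 2, the liver with the most Phlda3 and Eda2r, also had the highest summed level of cholangiocyte, macrophage and stellate markers, but not of endothelial markers. All 8 cholangiocyte markers tested were called higher at the unadjusted threshold, where 12.0% of all genes were called higher and 8.41% lower. Their summed level was 35.6 to 46.0 CPM in the GFP livers and 68.1, 131 and 92.9 CPM in Cre livers 1, 2 and 3. Of 9 macrophage and Kupffer cell markers 6 were called higher, with a summed level of 213 to 244 CPM against 308 to 416 CPM. Of 9 stellate cell and fibroblast markers 4 were called higher, with sums of 239 to 366 CPM against 467, 972 and 490 CPM. By the adjusted p-value from edgeR, 2 of the 8 cholangiocyte, 1 of the 9 macrophage and 0 of the 9 stellate markers were called. Of all genes tested, 0.931% were. DESeq2 called 7, 4 and 4 of these markers, beside 1157 of 18419 genes. No marker of these 3 lists had a count of 0 in any library, but only 5 of the 8 cholangiocyte markers had at least 10 counts in every library. The 9 hepatocyte markers summed to between 84774 CPM, in Cre liver 2, and 123193 CPM, in GFP liver 3, and 1 was called higher and 1 lower. Of 8 endothelial markers 0 were called higher and 1 lower, with sums of 201, 204 and 129.6 CPM in GFP livers 1, 2 and 3 and 158, 145 and 132 CPM in Cre livers 1, 2 and 3. Of 5 neutrophil markers tested 3 were higher and 1 lower. Of 3 T and NK cell markers tested 1 was higher and 1 lower, and the 1 B cell marker tested was higher. Without Cre liver 2, 7 of the 8 cholangiocyte, 5 of the 9 macrophage and 4 of the 9 stellate markers were called higher (counts chosen after seeing the data). The part of these cells in the Phlda3 difference was not tested.

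Trp53inp1 and Sesn2 act in autophagy and nutrient and redox stress. Trp53inp1 (chr4:11156441-11174379), whose product promotes p53 activity and autophagy, had 103, 68.5 and 134 CPM in the GFP livers and 51.6, 73.1 and 39.4 CPM in the Cre livers. Only Cre liver 2 reached into the GFP range. The means were 102 ± 32.7 CPM (SD, n = 3) and 54.7 ± 17.0 CPM (SD, n = 3), a log2 fold change of -0.90 (SE 0.29, edgeR unadjusted p = 0.0157, adjusted p = 0.146). This was the largest decrease among the 10 genes, 1.86-fold. In the fits that each left out 1 liver it lay between -1.16 and -0.66, and the call was lost without GFP liver 3 (-0.66, edgeR unadjusted p = 0.0538) and without Cre liver 3 (-0.71, edgeR unadjusted p = 0.0517).

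Sesn2 (chr4:132492804-132510456), which encodes a leucine sensor that restrains mTORC1, had 13.3, 10.2 and 7.54 CPM in the GFP livers and 8.78, 7.31 and 5.25 CPM in the Cre livers. The groups overlapped, since GFP liver 3 lay below Cre liver 1. The log2 fold change was -0.54 (SE 0.26, edgeR unadjusted p = 0.0725, adjusted p = 0.286).

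The scaling of the libraries changed which of these genes passed the unadjusted threshold. With library sizes alone the median log2 fold change of all genes was 0.16, and Trp53 and Phlda3 were called higher and 0 genes lower, in place of 1 higher and 2 lower. The same 2 genes were called by limma on log2(FPKM + 1), where the median of all genes was 0.11. Relative to the median of all genes, the log2 fold changes with library sizes alone were 0.25 for Trp53, 1.49 for Phlda3, -0.32 for Ccng1 and -0.86 for Trp53inp1, close to those after TMM.

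**Figure D2:**
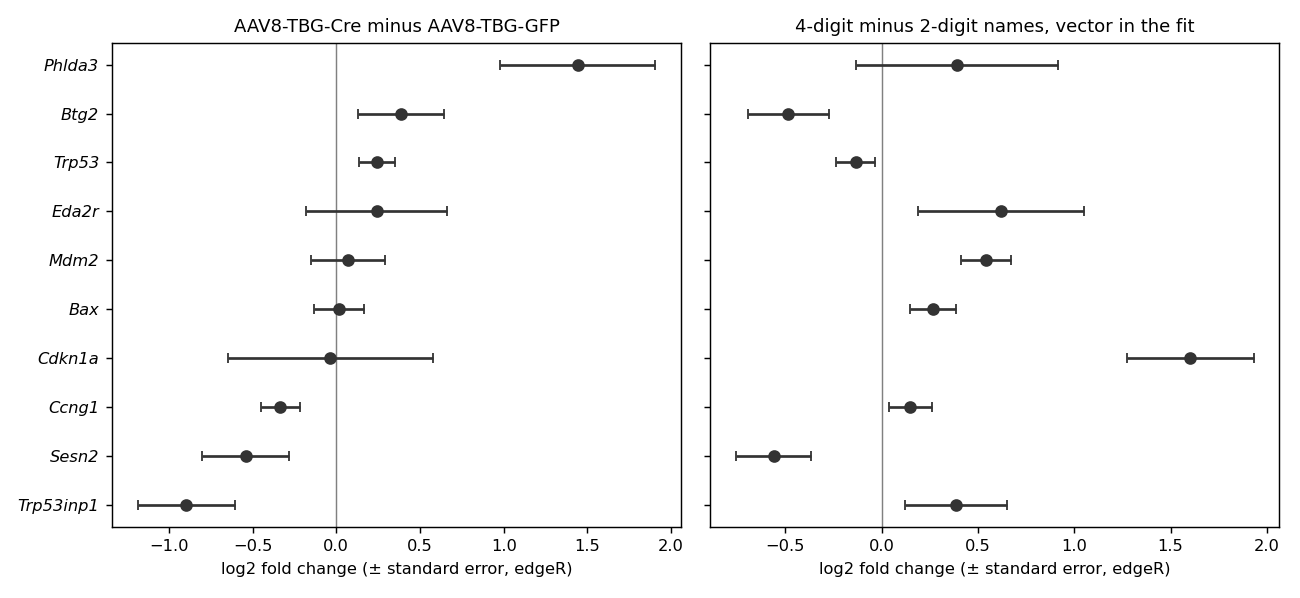
Log2 fold change with its standard error (SE) from edgeR (horizontal axes) for the 10 genes, between vectors on the left and between library names of 4 and 2 digits, with the vector in the fit, on the right. Phlda3 (1.44) and Trp53inp1 (-0.90) lie farthest from 0 on the left, and Cdkn1a (1.60) on the right.

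Cdkn1a, Mdm2 and Bax were higher in every liver with a 4-digit library name than in every liver with a 2-digit name, and Sesn2 was lower in every one of them. That made 4 of 10 genes without overlap, beside 21.6% of all genes. For Bax the forms all but met, at 17.40 CPM in GFP liver 2 and 17.47 CPM in Cre liver 3. Its log2 difference between the forms was 0.27 (SE 0.12, edgeR unadjusted p = 0.0616, adjusted p = 0.326). For Cdkn1a the nearest values were 21.5 CPM in GFP liver 1 and 22.8 CPM in Cre liver 3. Cdkn1a had 14.6 ± 5.99 CPM (SD, n = 3) in livers with a 2-digit name and 39.4 ± 14.5 CPM (SD, n = 3) in those with a 4-digit name. In a fit with both vector and name form, its log2 difference between the forms was 1.60 (SE 0.33, edgeR unadjusted p = 0.00164, adjusted p = 0.0711). Mdm2 had 25.9 ± 4.35 CPM (SD, n = 3) and 36.7 ± 0.892 CPM (SD, n = 3), a log2 difference of 0.54 (SE 0.13, edgeR adjusted p = 0.0989). Sesn2 went the other way, with a log2 difference of -0.56 (edgeR adjusted p = 0.214).

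At the same unadjusted threshold, Cdkn1a, Mdm2 and Sesn2 were called between the name forms, 3 of 10, beside 15.9% of all genes. By the adjusted p-value 0 of 10 were called, beside 1.39% of all genes. What the name form stands for is not given in the labels, so these are differences between libraries and not between known conditions.

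With the name form in the fit, the standard error (SE) of Cdkn1a between the vectors shrank from 0.61 to 0.33, and its log2 fold change was -0.52 (edgeR adjusted p = 0.405). The log2 ratio of the Cdkn1a group means was -0.50 among the livers with a 2-digit name and -0.54 among those with a 4-digit name. In the 2-digit form the single Cre liver (11.5 CPM) lay between GFP liver 2 (10.9 CPM) and GFP liver 1 (21.5 CPM). In the 4-digit form both Cre livers lay below the single GFP liver in CPM. That order rests on the TMM scaling, since in the deposited FPKM Cre liver 2 (28.1) lay above GFP liver 3 (23.7). Within forms these ratios were -0.73 and -1.25 for Trp53inp1, 0.59 and 1.96 for Phlda3, 0.18 and 0.40 for Trp53 and -0.54 and -0.24 for Ccng1. For Trp53, Phlda3 and Ccng1 the same sign in each form follows from group ranges that did not overlap, so it adds no further evidence. Trp53inp1, whose groups overlapped, also had the same sign in each form. The 2-digit form had only 1 Cre liver and the 4-digit form only 1 GFP liver. In this fit Trp53 (0.29, edgeR unadjusted p = 0.0200) and Btg2 (0.55, edgeR unadjusted p = 0.0337) joined the 3 genes called between the vectors, and 0 passed the adjusted threshold.

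Among all other genes tested, Mab21l2, Fam212b, Gadd45b, Acnat2 and 1700112J16Rik had the profiles most like Cdkn1a over the 6 livers. Their root mean square difference from the centred log2 profile of Cdkn1a was 0.24, 0.24, 0.26, 0.27 and 0.29, whereas a gene with the same level in every liver would differ by 0.85. Gadd45b, a stress-induced gene of the family to which the p53 target Gadd45a belongs, had 1.63, 0.867 and 5.81 CPM in the GFP livers and 1.34, 5.83 and 2.55 CPM in the Cre livers. Its 3 highest livers were those of Cdkn1a, which follows from how it was chosen. Gadd45a itself had 7.62, 11.2 and 2.77 CPM in the GFP livers and 6.01, 5.18 and 6.31 CPM in the Cre livers. It was lowest in GFP liver 3, where Cdkn1a was highest in CPM. Of the other 9 genes, Eda2r and Mdm2 came closest to Cdkn1a (both 0.59), and Sesn2 and Btg2 were farthest (both 1.08).

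Transcripts were compared within the 3 genes that had 2 transcripts with at least 10 expected counts on average. Trp53 was steady, since its RefSeq transcript NM_001127233 took 14.2% to 20.7% of the expected counts in the 6 livers and NM_011640 took the rest. For Mdm2, NM_001288586 took 4.85%, 0.251% and 39.8% of the counts in GFP livers 1, 2 and 3 and 0%, 24.4% and 21.1% in Cre livers 1, 2 and 3. The share was at most 4.85% in the livers with a 2-digit name and at least 21.1% in those with a 4-digit name. In expected counts the same transcript had 29.5, 1.14 and 285 against 0, 217 and 157. The remaining Mdm2 transcript, NM_010786, had 22.6 to 29.4 CPM over the 6 livers, and its values in the 2 name forms overlapped.

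For Trp53inp1, NM_001199105 took 65.6% ± 14.4 (SD, n = 3) of the counts in the GFP livers and 50.3% ± 6.28 (SD, n = 3) in the Cre livers. It had 51.2, 47.4 and 104 CPM against 29.5, 35.8 and 17.6 CPM, without overlap, whereas NM_021897 had 51.9, 21.1 and 29.6 CPM against 22.1, 37.2 and 21.8 CPM, which overlapped. The groups of livers thus separated for the former transcript and not for the latter, and the difference between the transcripts was not tested. Expected counts split fragments common to both transcripts by estimation, so these shares carry an error that the files do not state. Cdkn1a came almost wholly from NM_007669, with 97.6% to 100% of its counts.

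**Figure D3:**
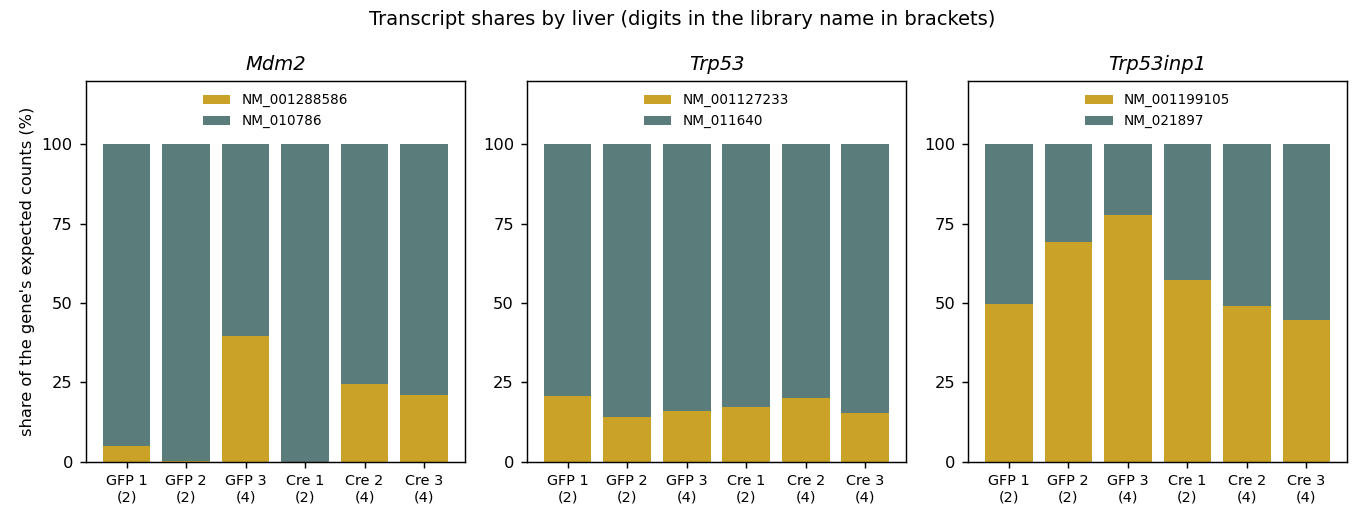
Share of each gene's expected counts (vertical axis, %) assigned to its 2 RefSeq transcripts in each of the 6 livers, for Mdm2, Trp53 and Trp53inp1, with the digits of the library name in brackets. The Mdm2 transcript NM_001288586 is above 20% only in the 3 livers with a 4-digit name, and the Trp53 shares hardly move.

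In FPKM, which allows levels of different genes to be compared, Bax was the most abundant of the 10 genes in the GFP livers, at 20.6 ± 1.69 (SD, n = 3). It was followed by Trp53inp1 (17.4 ± 5.22), Ccng1 (15.3 ± 0.918), Cdkn1a (13.3 ± 9.40), Trp53 (12.1 ± 1.49), Mdm2 (9.17 ± 2.04), Btg2 (5.76 ± 1.49), Sesn2 (3.64 ± 1.12), Phlda3 (1.29 ± 0.471) and Eda2r (0.443 ± 0.00577). Neighbours in this order overlapped between livers down to Sesn2, whereas Sesn2 and Phlda3, and Phlda3 and Eda2r, did not.

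A wider list of 70 p53 genes, covering regulators and further targets, gave the setting of the 10. Of the 70, 63 were tested, and the 7 others, Trp63, Trp73, Cdkn2a, Rprm, Psrc1, Trp53cor1 and Ptprv, had too few counts. At the unadjusted threshold 8 were higher and 8 lower in the Cre livers (12.0% and 8.41% of all genes). By the adjusted p-value from edgeR 0 were called, beside 0.931% of all genes. DESeq2 called 5 of the 70, beside 1157 of 18419 genes. The median log2 fold change of the 63 in edgeR was -0.057, beside -0.0065 over all genes. Called genes went in both directions in 4 of the 5 functional classes. Below, Trp53bp1, Pmaip1, Btg1, Mgmt, Pmm1, Gdf15, Top2a and Ccna2 are the 4 higher and 4 lower genes of smallest p-value, and the other called genes were named after their values were seen.

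Among 12 regulators tested, Trp53bp1 and Mdm4 were called higher and 0 lower. Trp53bp1, which encodes 53BP1, a DNA double-strand break response protein, had 11.7, 11.3 and 10.1 CPM in the GFP livers and 14.4, 17.4 and 17.3 CPM in the Cre livers. The groups were well apart, with a log2 fold change of 0.57 (SE 0.13, edgeR adjusted p = 0.0746). Mdm4, the partner of MDM2 in holding p53 inactive, went from 37.7 ± 1.82 to 48.5 ± 5.74 CPM (SD, n = 3 each; log2 fold change 0.36).

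Among apoptosis genes, 2 of 13 were called higher and 2 lower. Pmaip1, which encodes the BH3-only protein NOXA, had 0.508, 0.357 and 0.523 CPM in the GFP livers and 0.907, 1.85 and 1.06 CPM in the Cre livers, a log2 fold change of 1.45 (SE 0.41, edgeR adjusted p = 0.108) at very low levels. Apaf1, the core of the apoptosome, was also higher (0.77), and the death receptor gene Fas (-0.39) and the desmosomal gene Perp (-0.28) were lower. Among 9 cell cycle arrest genes, Sfn (14-3-3 sigma) was called higher (1.40) and Btg1 lower. Btg1, the relative of Btg2, had 52.1, 51.1 and 48.0 CPM against 40.9, 45.1 and 36.2 CPM (log2 fold change -0.31, SE 0.11, edgeR adjusted p = 0.177).

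Among 9 genes of DNA repair and nucleotide supply, Polk, a translesion polymerase gene, was called higher (0.56) and Mgmt lower. Mgmt, which encodes the methyltransferase that repairs O6-methylguanine, had 19.0, 20.8 and 23.1 CPM in the GFP livers and 13.5, 14.3 and 14.2 CPM in the Cre livers. This was the smallest p-value in the wider list, with a log2 fold change of -0.58 (SE 0.11, edgeR adjusted p = 0.0595).

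Among 20 genes of metabolism, redox and autophagy, Ak1 (1.64) and Dram1 (1.43) were called higher and Pmm1, Gdf15, Pank1 (-0.55) and Gpx1 (-0.40) lower. Pmm1, a phosphomannomutase gene, had 6.05, 7.96 and 9.16 CPM against 2.48, 4.27 and 3.03 CPM, a log2 fold change of -1.24 (SE 0.26, edgeR adjusted p = 0.0631). Gdf15, a stress-induced hormone gene, had 35.5, 17.1 and 44.4 CPM against 9.54, 17.0 and 9.34 CPM, a log2 fold change of -1.43 (SE 0.37, edgeR adjusted p = 0.0948). GFP liver 2 and Cre liver 2 all but met, so the Gdf15 groups were barely apart.

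**Figure D4:**
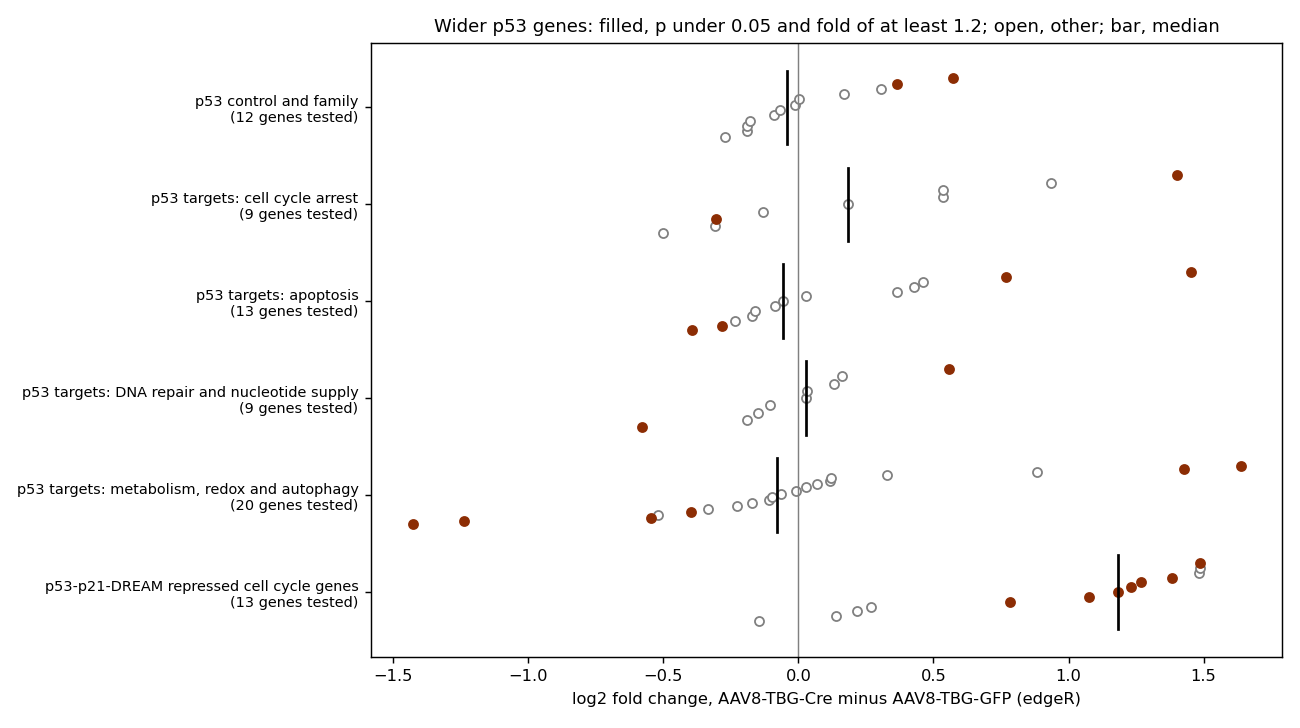
Log2 fold change in Cre against GFP livers (horizontal axis, edgeR) of the wider p53 genes by function; filled points passed the unadjusted threshold, and black bars are medians. The 5 upper lists hold filled points on both sides of 0 except the regulators, whereas the cell cycle list at the bottom has a median of 1.18 and 7 filled points, all higher.

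Genes that p53 represses through p21 and the DREAM complex, mostly of mitosis and DNA replication, were counted apart. Of 13 tested, 12 had a positive log2 fold change and 7 were called higher and 0 lower, where 12.0% of all genes were called higher, and 0 passed the adjusted threshold in edgeR. The median log2 fold change was 1.18. Without Cre liver 2, 5 were called higher and the median was 0.85, and with each other liver left out 5 to 9 were called (also chosen after seeing the data). DESeq2 called 4 of 15 by its adjusted p-value, beside 1157 of 18419 genes. Top2a, DNA topoisomerase II alpha, had 1.22, 1.38 and 0.942 CPM in the GFP livers and 4.15, 4.15 and 1.64 CPM in the Cre livers, a log2 fold change of 1.49 (SE 0.40, edgeR adjusted p = 0.101). Ccna2, cyclin A2, had 0.966, 0.867 and 1.62 CPM against 3.34, 2.92 and 2.07 CPM, a log2 fold change of 1.27 (SE 0.34, edgeR adjusted p = 0.0977). Both genes were at a few CPM at most, and all 3 Cre livers were higher. Over the whole list the summed level was 18.9 to 22.7 CPM in the GFP livers and 41.5, 45.3 and 25.7 CPM in Cre livers 1, 2 and 3. In the 2 Cre livers with the highest sums, Cdkn1a had 45.7 CPM in Cre liver 2 and 11.5 CPM in Cre liver 1. These 2 livers differ in name form, and a link between Cdkn1a and the sums was not tested. The part of the macrophage and cholangiocyte markers above in these cell cycle genes was not tested.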

How the data were processed

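Each liver took its group from the vector named in its title. Total RNA was isolated with an RNeasy kit, and libraries were sequenced on a DNBseq platform. The submitters' processing notes name mm10, HISAT2, Bowtie2 and RSEM, whereas the methods name STAR, HTSeq and DESeq2, all without versions. The authors deposited expected counts per transcript, not normalized, and FPKM per transcript and per gene, rounded to 2 decimals. Of the deposited expected counts, 45.4% were whole. The summed transcript FPKM of the 10 genes differed from the gene table by at most 0.01.

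Expected counts were summed per NCBI gene ID, rounded and tested in edgeR 4.0.16 (R 4.3.3) with TMM, filterByExpr and the vector as the factor. Standard errors were derived from the quasi-F statistic. Alternatives were DESeq2 1.42.0, limma 3.58.1 on log2(FPKM + 1) or log2(FPKM + 0.1) with a floor of 0.5 FPKM in 3 or more libraries, limma on log2(FPKM + 1) with no floor, RLE, upper quartile and library size scaling (the last added after the data were seen), no count filter or a minimum of 10 counts per library, blocking on replicate number, the name form as a covariate, a fold of 1.5, and each liver left out. The steps were tested on simulated counts.

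The rule for named genes took the 10 genes, Mettl14, the 4 smallest p-values in each direction in the wider p53 lists and the 5 genes most like Cdkn1a. The remaining called genes of the wider list (Mdm4, Apaf1, Fas, Perp, Sfn, Polk, Ak1, Dram1, Pank1 and Gpx1) fall outside it and were named after their values were seen. The genes, lists and tests were chosen with earlier results of these data known. Same-group libraries differed beyond sampling noise (chi-square per gene at least 24.9). The study's legend gives 3 mice per group. Counting error was large for genes near 1 CPM.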

Additional observations from a re-analysis of the deposited data

How the results depend on the processing

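Among the 10 genes, the count called at the unadjusted threshold was 3, and it was 5 with the library name form as a covariate, 1 with limma on log2(FPKM + 1) without a filter, and 2 to 3 when 1 liver was left out. By the adjusted p-value it was 0 in edgeR and limma under every alternative and 2 in DESeq2. In the wider list the count of 16 was 10 with limma on log2(FPKM + 0.1), 10 with limma on log2(FPKM + 1) without a filter, 7 at a fold of 1.5, and 9 (without AAV8-TBG-Cre replicate 2) to 18 (without AAV8-TBG-Cre replicate 1) with 1 liver left out; without AAV8-TBG-GFP replicate 1 it was 10. By the adjusted p-value its count of 0 was 5 in DESeq2, 2 without a low count filter, 2 with the name form and 0 to 2 with 1 liver left out. Across all genes the adjusted count was 125 in edgeR and 1157 in DESeq2. The edgeR count fell to 0 without AAV8-TBG-GFP replicate 2 or AAV8-TBG-Cre replicate 2 and was 928 without AAV8-TBG-Cre replicate 1. The cause was not tested.

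Trp53, Phlda3, Btg2, Ccng1, Trp53inp1 and Sesn2 kept their sign in all 17 alternatives. The sign of Cdkn1a turned with upper quartile scaling (0.051), library sizes alone (0.20) and limma on log2(FPKM + 1) (0.16 with and without a filter) or log2(FPKM + 0.1) (0.18), and with 1 liver left out it ran from -0.68 to 0.71. With the name form in the fit, Mdm2 was -0.12, Bax -0.072 and Eda2r -0.020, and with 1 liver left out they ran from -0.096 to 0.24, -0.13 to 0.10 and -0.40 to 0.51. None of these values was called.

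The deviations of same-numbered livers from their group means had correlations of 0.0091, -0.26 and 0.21, and those of the other pairings ran from -0.28 to 0.31. With 3 livers per group, these values cannot decide whether the numbers pair the livers. With the replicate block, 4 of the 10 genes were called at the unadjusted threshold (Sesn2 added), 0 by the adjusted p-value, 12 and 0 of the wider list, and Mettl14 was at -0.29. With 3 livers per group, the standard error of 0.61 limited what could be detected for Cdkn1a.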
